A study of Mus musculus with 6 samples.

Results

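The chemokine receptors *Cxcr2*, *Cxcr4*, *Ccr1*, *Ccr2*, *Ccr7* and *Cx3cr1* were examined in murine bone marrow-derived dendritic cells (BMDCs) cultured with or without IL-4. These 6 genes were listed by name with the IL-4 against control values of the same arrays already known, above all those of *Cxcr2*, so their differences are given as descriptions without a p-value, and whether they passed the test over all probes is given as a count only. Of the 6 genes, 5 had a probe that the array annotation names, and *Ccr1* had none and was not analysed here. The 5 genes had 6 probes, of 45281 on the array, and 5 of these were among the 16071 probes detected on at least 3 of the 6 arrays, which were the probes tested. Cells came from the bone marrow of 3 C57BL/6 male mice, with no genetic modification given in the labels, and the marrow of all bones of a mouse was pooled. All cells were grown for 10 days in 20 ng/ml GM-CSF and then transferred to 5 ng/ml GM-CSF for 6 h, with 20 ng/ml IL-4 on 3 arrays or with no IL-4 on the 3 control arrays. Polyadenylated RNA was hybridised to Illumina mouse BeadChips, which give the brightness of beads that carry a probe and a detection p-value against negative control beads.

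Chemokine receptors are G protein-coupled receptors of the cell surface, which direct the movement of leukocytes along gradients of chemokines. CXCR2 binds the neutrophil-attracting chemokines of the CXCL1 and CXCL2 group and is known best from neutrophils, CXCR4 binds CXCL12 and retains cells in the bone marrow, CCR2 binds CCL2 and CCL7 and releases monocytes into the blood, and CX3CR1 binds CX3CL1 and marks monocytes and tissue macrophages. CCR1 binds CCL3 and CCL5, and CCR7 binds CCL19 and CCL21 and leads mature DCs to the lymph node.

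*Cxcr2* and *Cxcr4* had the largest differences of the members, and both lie on mouse chromosome 1, so the sequences before their transcription start sites are shown with the motifs searched for on either strand. The *Cxcr2* window is chr1:74153744-74153993 on the plus strand and the *Cxcr4* window chr1:128592300-128592549 on the minus strand, 250 bases each from RefSeq (GRCm38.p6), and capitals mark CCGCCC, the core of the GC box bound by Sp1.
Cxcr2: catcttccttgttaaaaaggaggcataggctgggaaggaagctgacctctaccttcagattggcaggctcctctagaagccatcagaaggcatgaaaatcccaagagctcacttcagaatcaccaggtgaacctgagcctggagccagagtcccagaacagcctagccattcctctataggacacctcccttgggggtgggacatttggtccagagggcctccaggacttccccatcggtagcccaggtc
Cxcr4: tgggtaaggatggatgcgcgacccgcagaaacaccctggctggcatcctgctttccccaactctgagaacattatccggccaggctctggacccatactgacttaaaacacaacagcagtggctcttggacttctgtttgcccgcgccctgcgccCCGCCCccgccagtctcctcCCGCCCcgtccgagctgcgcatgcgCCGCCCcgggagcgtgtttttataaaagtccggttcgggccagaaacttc
The *Cxcr4* window held 3 matches to CCGCCC and the *Cxcr2* window none. CCGCCC was found in 32.7% of the windows of this length before 32851 RefSeq transcription start sites. The motif of STAT6, a transcription factor activated by the IL-4 receptor, was searched as TTC and GAA with any 4 bases between them. It was in neither window, nor in those of *Ccr1*, *Ccr2* and *Cx3cr1*, and was in 5.85% of all windows. The GC content was 54.4% for *Cxcr2* and 61.2% for *Cxcr4*, against a median of 52.4% over all windows. A match or its absence describes these letters alone.

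The median bead signal was 99.5, 97 and 121 with IL-4 in replicates 1, 2 and 3 and 83.8, 103 and 118 in controls, and 33 to 38% of probes were detected on each array. The labelled cell type was checked against marker genes, of which 9 of 10 for conventional DCs had a probe and all 9 were detected on every array. Markers of other cells were detected too, and 12 of 14 neutrophil genes with a probe were detected on all arrays. The log2 of the summed neutrophil marker intensity was 13.04, 15.09 and 12.87 with IL-4 and 13.35, 15.07 and 13.14 in controls. Of these genes, 11 were at their highest on both replicate 2 arrays and 2, *Mmp8* and *Csf3r*, at their lowest, so the list did not move as one. The replicate 2 arrays also had the highest sums for mast cell and basophil markers, at 12.32 with IL-4 and 12.51 in control, and the lowest for monocyte markers, at 9.61 with IL-4 and 9.64 in control. For these 3 lists the replicate 2 arrays stood further from the other arrays than the IL-4 and control arrays of a number stood from each other. In whole cultures, fewer cells of a type and less RNA per cell cannot be told apart.

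*Cxcr2* was the member with the largest difference. Its log2 intensity after background correction was 8.21, 7.68 and 8.46 in the IL-4 arrays of replicates 1, 2 and 3, against 5.02, 5.74 and 4.59 in controls. Every IL-4 array was above every control array, as was so for 6.09% of all tested probes. The mean was 8.12 ± 0.40 with IL-4 and 5.12 ± 0.58 in controls (SD, n = 3 each), a difference of 3.00 on the log2 scale (SE 0.31) or 8-fold. Of the 16071 tested probes, 2 had a larger difference in either direction. The IL-4 against control contrast accounted for 93.1% of the sum of squares of *Cxcr2* over the 6 arrays and the replicate number for 0.24%. Over all tested probes the medians were 12.9% for the contrast and 49.7% for the replicate number. As *Cxcr2* was listed with this contrast known, nothing is read from its shares.

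**Figure D1:**
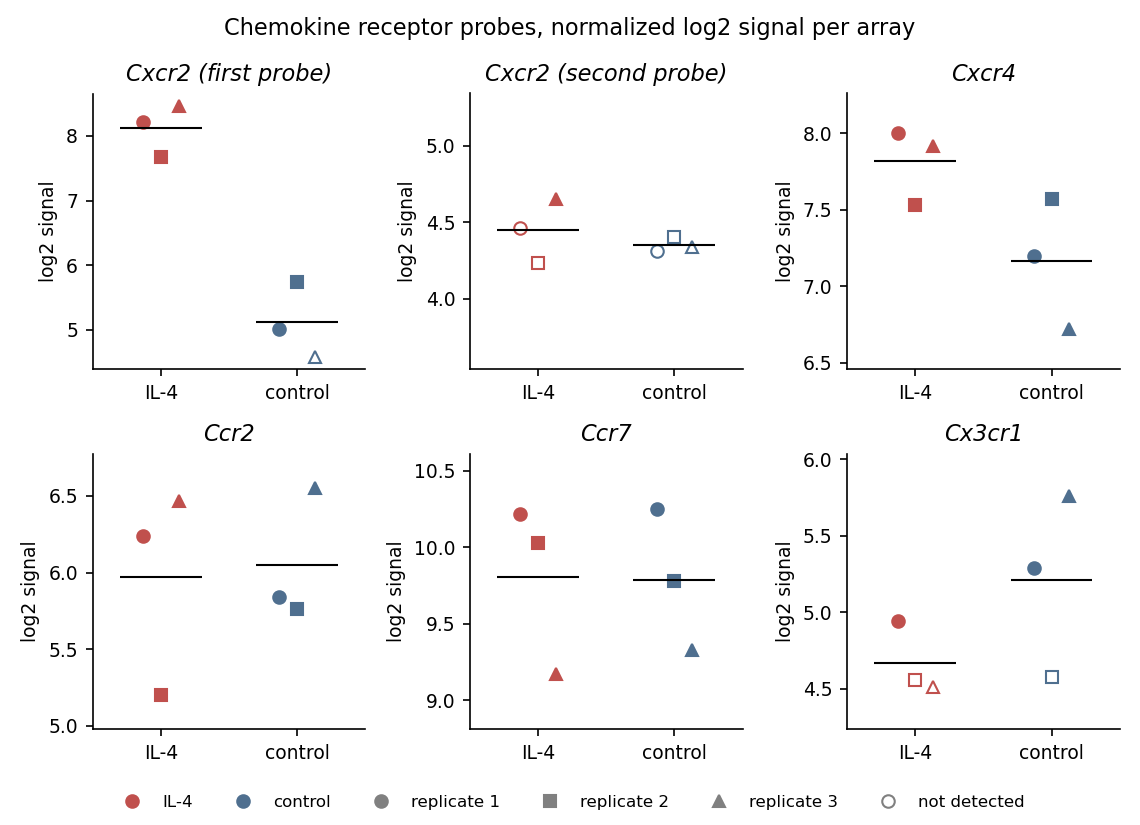
Background-corrected log2 intensity of the 6 probes of 5 chemokine receptor genes on each array, with IL-4 left of control; symbols give the replicate number, open symbols mark arrays where the probe was not detected, and black lines are group means. *Cxcr2* (ILMN_1223834) has IL-4 arrays at 7.68 to 8.46 and control arrays at 4.59 to 5.74, whereas its second probe stays between 4.23 and 4.65 on all arrays.

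The fold of *Cxcr2* depended on the treatment of the background, as its control signals were close to it. The bead signals were 390, 228 and 617 with IL-4 and 91.3, 139 and 121 in controls, where the whole-array median was 83.8 to 118. The probe was detected on all 3 IL-4 arrays and on 2 of 3 control arrays, the exception being replicate 3. On the log2 values normalized by the authors, *Cxcr2* was at 7.89, 7.48 and 8.11 with IL-4 and at 6.00, 6.20 and 5.94 in controls. That difference was 1.78, or 3.43-fold, and without background correction it was 1.60, or 3.04-fold. The separation of the groups was thus present in each version, while its size was not fixed better than about 3.04-fold to 8-fold.

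Within replicate numbers, the background-corrected *Cxcr2* difference varied more than that of any other member probe that was tested. It was 3.18, 1.94 and 3.87 in replicates 1, 2 and 3, or 9.09-fold, 3.84-fold and, against the detection floor of the undetected control array, at least 13.7-fold. On the authors' values it was 1.89, 1.28 and 2.17, and that of *Cxcr4*, at 0.65, -0.05 and 0.89, varied slightly more. Replicate 2, which had the highest neutrophil marker sums, held the highest *Cxcr2* value of the control arrays (5.74) and the lowest of the IL-4 arrays (7.68). Without both replicate 2 arrays the difference was 3.53. The bearing of the neutrophil markers on the *Cxcr2* values was not tested.

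A second *Cxcr2* probe, ILMN_2737157, which is annotated to the same RefSeq transcript, did not show the difference. Its values were 4.46, 4.23 and 4.65 with IL-4 and 4.31, 4.40 and 4.34 in controls. It was detected on 1 array, that of IL-4 replicate 3, so it did not enter the tests and sets no fold. The *Cxcr2* values therefore rest on the 1 probe ILMN_1223834, and the reason for the disagreement of the probes was not tested.

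*Cxcr4* was higher with IL-4 in 2 of 3 replicate numbers. Its intensity was 8.00, 7.53 and 7.92 with IL-4, against 7.20, 7.57 and 6.72 in controls. The groups overlapped through replicate 2, in which the IL-4 and control arrays differed by -0.04, whereas replicates 1 and 3 differed by 0.80 and 1.20. The means were 7.81 ± 0.25 with IL-4 and 7.16 ± 0.43 in controls (SD, n = 3 each), a difference of 0.65 (SE 0.24) or 1.57-fold, which 2.87% of tested probes exceeded. *Cxcr4* was detected on every array, and its difference was 0.49 on the authors' values. Replicate 2 thus had the smallest difference for *Cxcr4*, as it had for *Cxcr2*. This was not particular to these receptors. The DC marker *Irf4* differed by 0.52 in replicate 2, against 1.46 and 1.25 in replicates 1 and 3. Another DC marker, *Clec10a*, went the other way, with 0.85 in replicate 2 against 0.56 and 0.44.

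**Figure D2:**
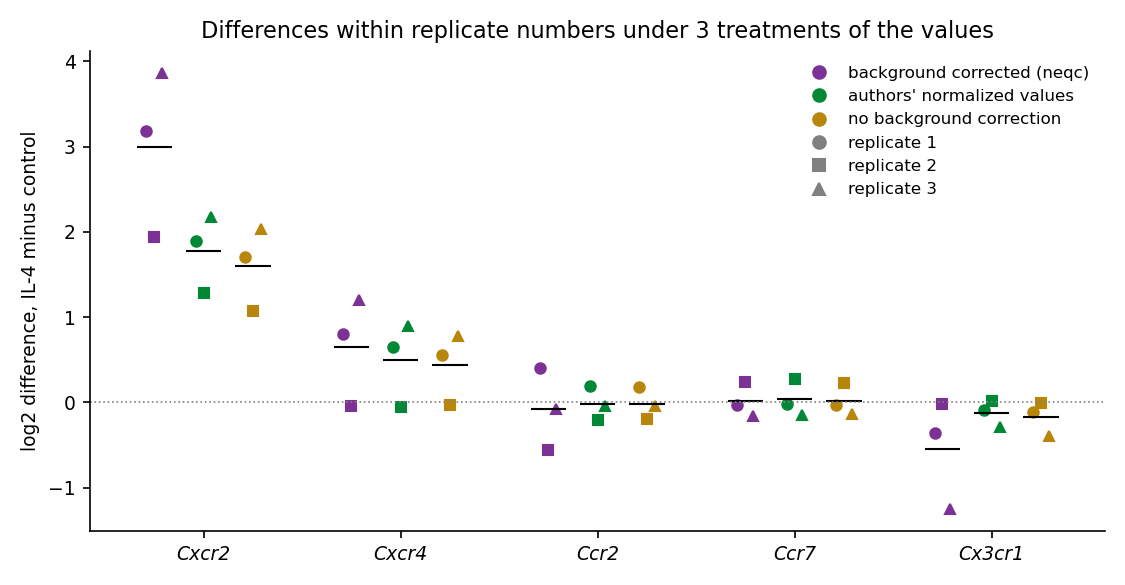
Difference in log2 intensity between the IL-4 and control arrays of the same replicate number for the 5 tested member probes, after background correction (purple), on the authors' values (green) and without background correction (yellow); black lines are means and the dotted line marks 0. *Cxcr2* lies above 0 in every replicate and version, at 1.94 to 3.87 after background correction, and *Ccr7* and *Ccr2* lie on both sides of 0.

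*Ccr2* and *Cx3cr1* are the receptors of the monocyte lineage, and *Ccr2* was detected on all 6 arrays and *Cx3cr1* on 3. *Ccr2* read 6.24, 5.20 and 6.47 with IL-4 and 5.84, 5.76 and 6.55 in controls. The means were 5.97 ± 0.68 with IL-4 and 6.05 ± 0.44 in controls (SD, n = 3 each), a difference of -0.08 (SE 0.34) that was smaller than the spread within either group. In a fit blocked on the replicate number the SE of the *Ccr2* difference was 0.19. The replicate number carried 81.6% of the sum of squares of *Ccr2*, and its lowest mean, 5.48, was in replicate 2, the number with the lowest monocyte marker sums. *Cx3cr1* read 4.94, 4.56 and 4.51 with IL-4 and 5.29, 4.58 and 5.76 in controls, a difference of -0.54 (SE 0.28). *Cx3cr1* was detected in replicate 1 with IL-4 and in replicates 1 and 3 without it, and it passed the filter on low values at the smallest number of arrays allowed. The *Cx3cr1* difference was -0.12 on the authors' values and -0.17 without background correction. The bearing of the monocyte markers on *Ccr2* and *Cx3cr1* was not tested.

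*Ccr7*, the receptor of mature DCs, was detected on every array and differed little between the groups. Its values were 10.22, 10.03 and 9.17 with IL-4, against 10.25, 9.78 and 9.33 in controls. The means were 9.81 ± 0.56 with IL-4 and 9.79 ± 0.46 in controls (SD, n = 3 each), a difference of 0.02 (SE 0.31), and the within-replicate differences of -0.03, 0.24 and -0.16 took both signs. In a fit blocked on the replicate number the SE of the *Ccr7* difference was 0.16. The replicate number accounted for 95.8% of the sum of squares and IL-4 for 0.0416%, with replicate means of 10.24, 9.91 and 9.25. The larger share of *Ccr7* was thus that of the replicate number, for which the median over all tested probes was 49.7%. The summed markers of migratory DCs, a list of 9 genes without *Ccr7*, were 15.08, 14.72 and 15.08 with IL-4 and 14.68, 14.48 and 14.70 in controls. These sums did not overlap, and 6.09% of single tested probes had every IL-4 array above every control. By gene, 8 differences were above 0 and 1, that of *Relb*, was below it (-0.17). The groups overlapped for *Fscn1*, *Cd83*, *Cd40*, *Cd86*, *Relb* and *Il4i1* by their brightest probes. The bearing of these markers on the *Cxcr2* difference was not tested.

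**Figure D3:**
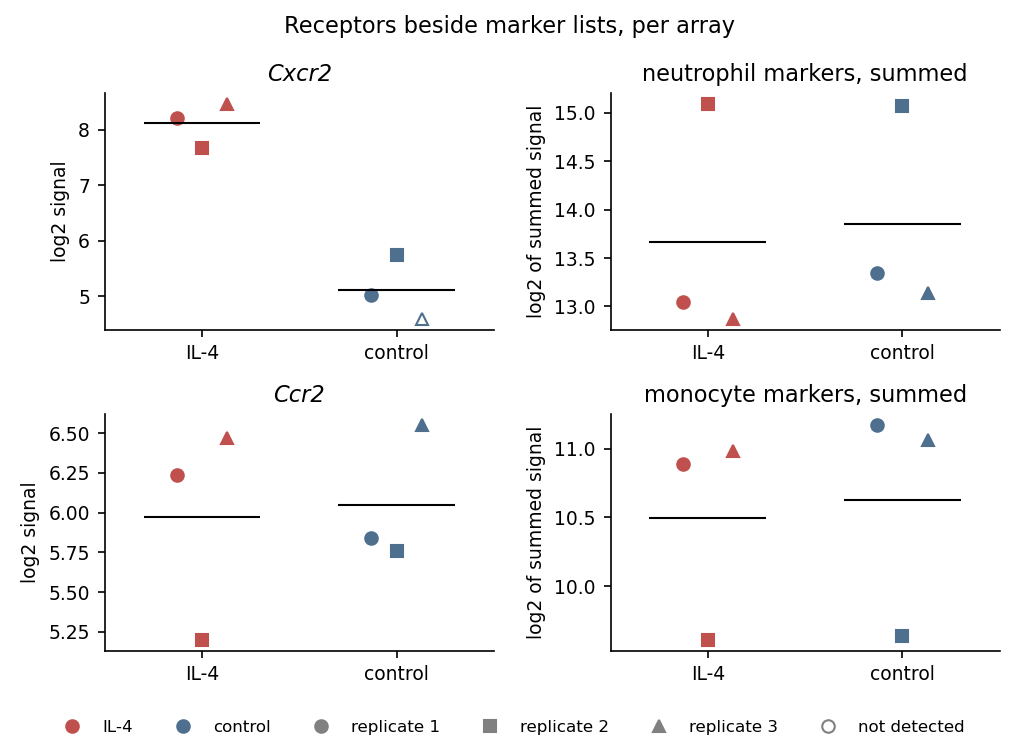
Log2 intensity of *Cxcr2* and *Ccr2* beside the log2 summed intensity of neutrophil and monocyte marker genes on the same 6 arrays, with IL-4 left of control, symbols for the replicate number, open symbols where a probe was not detected and black lines for group means. The neutrophil sum separates replicate 2 (15.09 with IL-4, 15.07 in control) from the other arrays, while *Cxcr2* separates the IL-4 arrays from the controls.

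In the limma fit over all 16071 probes with Benjamini-Hochberg adjustment, 1 of the 5 tested members passed an adjusted p of 0.05, namely *Cxcr2*, higher with IL-4, where 0.112% of all tested probes passed. Blocking on the replicate number again gave 1 of 5, where 2.27% of probes passed and 1.44% passed as higher. The count was 0 of 5 on the authors' values with or without the block, without a detection filter, and without the IL-4 array of replicate 1, the control array of replicate 1, or both arrays of replicate 1 or of replicate 3. Few probes of any gene passed there. The share of all probes was 0 on the authors' values, 0.00221% without a detection filter and 0.00622% in each of these settings with arrays left out. As the members were chosen on this contrast, nothing is read from these counts.

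The probes whose pattern over the 6 arrays was most like that of each member are given as a description. For *Cxcr2* these were *Khdrbs1* (Pearson r = 0.995), *Snx8* (0.993), *H1f2* (0.985) and *Mad1l1* (0.985), over 6 arrays in 2 groups, so that any probe separating the groups cleanly has a high r. Their differences between IL-4 and control were 0.13, 0.74, 0.92 and 1.38, all smaller than that of *Cxcr2*. The closest to *Cxcr4* were *Pcmt1* (0.999) and *Usp14* (0.999), to *Ccr2* *Cttnbp2nl* (0.996), to *Ccr7* the MHC class I gene *H2-K1* (0.994) and to *Cx3cr1* *Rnpep* (0.974). The likest probe of *Ccr7*, *H2-K1*, read 7.59, 7.55 and 6.58 with IL-4 and 7.68, 7.25 and 6.78 in controls. As it was picked for its likeness to *Ccr7*, that it too followed the replicate number was set by the choice.

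Of 18 other chemokine receptor genes listed, 4 had a named probe and 3 were tested. *Ccrl2*, an atypical receptor that binds chemerin and presents it to other cells, read 5.73, 5.79 and 6.00 with IL-4 against 6.56, 6.55 and 6.92 in controls. All 3 IL-4 arrays were below all controls, as for 6% of tested probes, and the difference was -0.83 (SE 0.17). *Ccrl2* did not pass in the limma fit without the block (adjusted p = 0.171), in which 0 of the 3 receptors passed, 1 had an unadjusted p under 0.05, and 0.123% of 8921 genes by their brightest probe passed. In the fit blocked on the replicate number it fell by 0.83 (limma adjusted p = 0.0117), as the only receptor of the 3, where 2.66% of genes passed in either direction and 1.01% as lower. *Ccr6*, the receptor of CCL20, read 4.69, 5.23 and 4.67 with IL-4 and 4.42, 5.55 and 4.60 in controls, a difference of 0.01 (limma adjusted p = 0.998, and 0.994 with the block). *Ackr4*, a scavenger of the CCR7 ligands, differed by -0.13 (limma adjusted p = 0.974, and 0.804 with the block). *Cxcr5*, the receptor of CXCL13, was detected on 1 array, that of IL-4 replicate 3, and was not tested.

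Of 17 chemokines known to bind the members, 13 had a named probe and 12 were tested. Without the block 0 of 12 passed in limma and 3 had an unadjusted p under 0.05, and with it 3 passed, 2 higher and 1 lower, beside 1.65% of all genes higher and 1.01% lower. The median difference of the 12 was -0.27, beside -0.0149 for all tested genes. *Ccl7*, a monocyte attractant that binds CCR1 and CCR2, read 8.16, 7.20 and 7.91 with IL-4 against 7.0, 6.35 and 6.98 in controls. All 3 IL-4 arrays were above all controls on this probe, as for 6.09% of tested probes. *Ccl7* rose by 0.98, or 1.97-fold, with the block (SE 0.15, limma adjusted p = 0.00548, against 0.358 without the block). Its second probe rose by 0.99 with overlapping groups, as IL-4 replicate 2 read 6.74 and control replicate 1 read 6.94. *Ccl12*, a CCR2 ligand of the mouse, read 5.20, 4.79 and 5.54 with IL-4 and 6.07, 5.66 and 6.51 in controls, and fell by 0.90 with the block (SE 0.15, limma adjusted p = 0.00747, against 0.378 without it). The *Ccl12* difference was -0.34 on the authors' values and that of *Ccl7* 0.74, and 0 of the ligands passed on those values with or without the block. The pair of CCR2 ligands thus moved in opposite directions while *Ccl2*, the third measured CCR2 ligand, differed by 0.24 (limma adjusted p = 0.973, and 0.566 with the block).

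*Cxcl12*, the ligand of CXCR4, read 5.18, 5.16 and 5.30 with IL-4 against 4.30, 4.75 and 4.33 in controls. It rose by 0.75 with the block (SE 0.17, limma adjusted p = 0.0329, against 0.232 without it). *Cxcl12* was detected on all IL-4 arrays and on 1 control array, its difference was 0.10 on the authors' values, and its second probe was detected on no array. The remaining tested ligands, of CCR1 and CX3CR1, differed by -0.41 (*Ccl6*) to 0.11 (*Ccl9*) and passed in neither fit. *Ccl19* and *Ccl21a*, the CCR7 ligands, had no named probe and were not analysed here.

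The ligands of CXCR2 itself did not pass by their brightest probes. *Cxcl1* read 6.69, 5.70 and 7.01 with IL-4 and 7.28, 5.60 and 8.35 in controls, a difference of -0.61 (limma adjusted p = 0.945, and 0.244 with the block). *Cxcl2* read 9.55, 7.95 and 9.44 with IL-4 and 10.11, 8.28 and 10.21 in controls, a difference of -0.55 (limma adjusted p = 0.946, and 0.115 with the block). Replicate 2 was the lowest number for both ligands in each group. A dimmer *Cxcl2* probe read 8.25, 6.97 and 7.78 with IL-4 and 9.71, 7.34 and 9.77 in controls, and was lower by 1.28 with the block (SE 0.24, limma adjusted p = 0.0153, against 0.723 without it), so the probes of *Cxcl2* disagreed on the call. *Ppbp*, the platelet chemokine CXCL7, differed by -0.65 (limma adjusted p = 0.773, and 0.0547 with the block). Its second probe differed by -0.41 (limma adjusted p = 0.917, and 0.289 with the block). All 3 tested CXCR2 ligands had differences below 0 beside the 3.00 of the receptor, and *Cxcl3* was detected on no array.

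**Figure D4:**
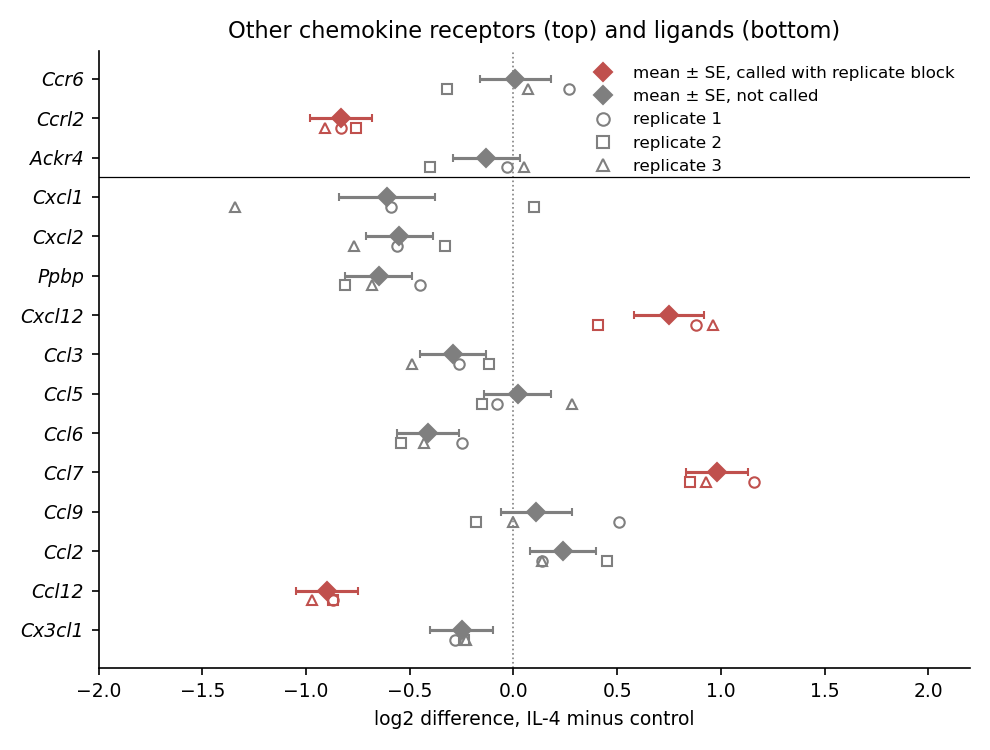
Difference in log2 intensity between IL-4 and control for the other tested chemokine receptors (top) and the ligands (bottom), with diamonds for the mean ± SE of the fit that blocks on the replicate number and open symbols for the 3 within-replicate differences; red marks genes past an adjusted p of 0.05 in that fit. *Ccl7* stands at 0.98 and *Cxcl12* at 0.75 above 0, and *Ccrl2* at -0.83 and *Ccl12* at -0.90 below it.

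The genes that carry the signal of these receptors into the cell gave no call in either fit. Of 29 G proteins, receptor kinases, arrestins, RGS proteins and effectors listed, 24 had a named probe and 22 were tested, and 0 passed in limma without or with the block, where 1 had an unadjusted p under 0.05 in each and 0.123% of all genes passed without the block and 2.66% with it. Their differences ran from -0.65 to 0.20. The lowest was *Gng2*, a G protein gamma subunit, which had 7.56 ± 0.46 with IL-4 and 8.20 ± 0.40 in controls (SD, n = 3 each, limma adjusted p = 0.676, and 0.227 with the block). A second *Gng2* probe differed by -0.63 (limma adjusted p = 0.433, and 0.126 with the block), with all IL-4 arrays below all controls, as for 6% of tested probes. *Gng2* passed with the block when replicate 2 was left out, where 5.24% of all tested probes passed. That fit had fewer residual degrees of freedom than the blocked fit on all arrays, so nothing is read from the call. The highest was *Gnai2*, the inhibitory G protein alpha subunit through which chemokine receptors mainly signal in leukocytes, with 11.87 ± 0.20 with IL-4 and 11.67 ± 0.11 in controls (SD, n = 3 each, limma adjusted p = 0.925, and 0.671 with the block). Among the arrestins, which take chemokine receptors from the surface, *Arrb2* differed by -0.26, and the 5 tested probes of *Arrb1* took both signs, from -0.43 to 0.14, with -0.25 on the brightest. The receptor kinase *Grk5* differed by -0.31.

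The genes next to the members on the chromosomes, up to 3 protein-coding genes on each side in RefSeq, were read in the same way by a rule set after the members' values were known. Of 34 such genes 12 were tested, *Ccr2* among them as a neighbour of *Ccr1*, with differences from -0.42 to 1.45. In limma 0 of these passed without the block, where 0.123% of all genes passed, and 2 passed with it, both higher and beside *Cxcr2*, where 1.65% of all genes passed as higher. *Rufy4*, the gene adjacent to *Cxcr2*, which takes part in autophagy, read 6.41, 5.12 and 6.69 with IL-4 against 4.64, 4.63 and 4.60 in controls. It was detected on all IL-4 arrays and on no control array, so the difference of 1.45 after background correction amounted to at least 2.56-fold on that scale (limma adjusted p = 0.00909 with the block, against 0.25 without it). *Rufy4* thus entered the tests only through the IL-4 arrays, where it was high, and nothing is read from its call. The *Rufy4* difference was smaller on the authors' values, at 0.47, and without background correction, at 0.53. *Tns1*, which encodes the focal adhesion protein tensin, read 6.79, 4.78 and 7.26 with IL-4 and 5.33, 4.44 and 6.18 in controls, and with overlapping groups was higher by 0.96 with the block (limma adjusted p = 0.0267, against 0.864 without it). As for *Cxcr2*, *Cxcr4* and other genes such as *Irf4*, the within-replicate difference was smallest in replicate 2, at 0.48 for *Rufy4* and 0.33 for *Tns1*. *Arpc2*, a subunit of the actin-nucleating Arp2/3 complex on the same stretch of chromosome 1, differed by 0.17 (limma adjusted p = 0.965, and 0.731 with the block).

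**Figure D5:**
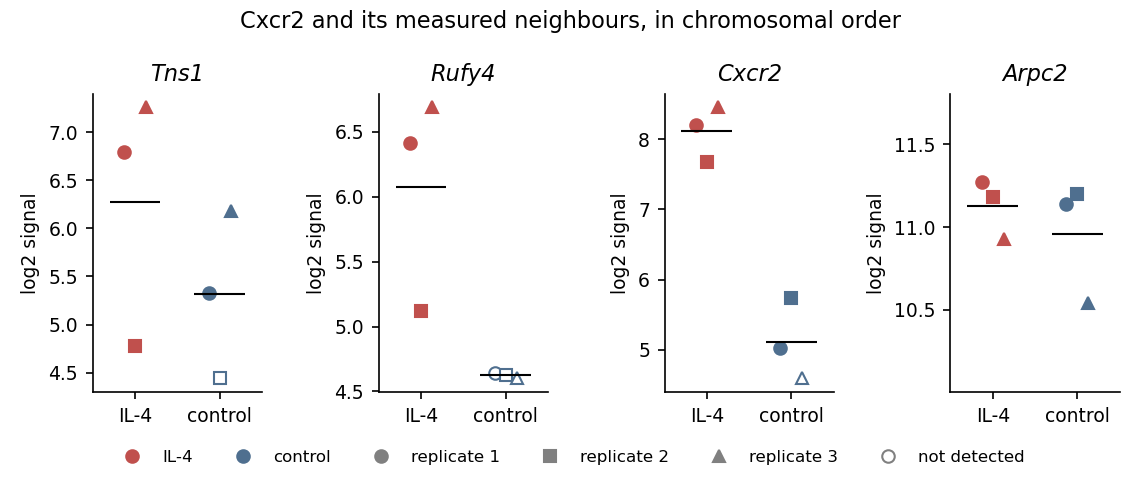
Background-corrected log2 intensity of *Cxcr2* and the tested genes beside it on chromosome 1 on each array, with IL-4 left of control, symbols for the replicate number, open symbols where the probe was not detected and black lines for group means. *Rufy4* reads 5.12 to 6.69 with IL-4 and 4.60 to 4.64 in controls, where it is not detected, and *Arpc2* differs by 0.17.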

How the data were processed

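BMDC cultures with and without IL-4 were compared on 3 arrays each. The deposited bead table holds intensity and a detection p-value per probe, which the authors exported without normalization. The authors' second table holds log2 values, made with lumi and limma per the labels, with versions and a genome build not given in the sources used here. Intensities were background-corrected with neqc, which infers the background from the detection p-values, with an offset of 16, quantile normalized and tested with lmFit and eBayes (limma 3.58.1, R 4.3.3) on the 16071 probes that at least 3 arrays detected at p under 0.05, with Benjamini-Hochberg adjustment and a call at 0.05. The fit without a block left 4 residual degrees of freedom and the fit blocked on the replicate number 2. Detection is the only measure of depth on these arrays, and 3 arrays per group limit the precision. The labels give the same replicate numbers to both groups without stating a shared mouse. Arrays of the same number deviated together from their group means (r = 0.29, 0.55 and 0.62, against -0.55 to 0.096 between numbers), so that the numbers were taken to pair the arrays from the data. The study's methods call the 3 replicates biological, and the labels name 3 mice without tying an array to a mouse.

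Gene names came from the platform's annotation of the authors' probes, with 1 gene for 16243 of them, several for 8 and none listed for 3042, and the brightest probe stood for a gene. Named were all probes of the members, every detected gene among the other receptors, the ligands and signalling genes that passed in either fit or had the largest differences, each CXCR2 ligand measured, and for each member the probes of highest Pearson r. The members and all gene lists were chosen with earlier results of these data known. Marker lists of 8 cell classes were summed on the linear scale. Differences are IL-4 minus control, and an SE is that of the fit without a block unless the block is named. Fold changes of undetected groups were computed against the lowest log2 signal among the detected probes of each array. Promoter windows were read from RefSeq (GRCm38.p6), and *Ccr7* has no window shown. The fits were tested on simulated data. Alternatives were no background correction, an offset of 50, the authors' values, other detection filters, an intensity trend, the replicate block and leaving out arrays. Figures were drawn with matplotlib 3.10.9 under Python 3.11.15.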

Additional observations from a re-analysis of the deposited data

How the results depend on the processing

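The *Cxcr2* difference of 3.00 kept its sign in every setting run. It was 1.60 without background correction, 2.17 with an offset of 50 and 1.78 on the authors' values, with or without the replicate block, and 2.56 to 3.53 when arrays were left out, 3.53 being the value without both replicate 2 arrays. Leaving out arrays gave 0.38 to 1.0 for *Cxcr4*, -0.33 to 0.31 for *Ccr2*, -0.21 to 0.34 for *Ccr7* and -0.86 to -0.19 for *Cx3cr1*. The 1 member that passed, *Cxcr2*, became 0 on the authors' values, with or without the replicate block, and 0 without a detection filter, where 0.00221% of all probes passed. On the authors' values none of the 15888 probes fitted there passed (1330 at an unadjusted p under 0.05 without the block in limma, 2154 with it). The paper, from its own limma analysis of the arrays, does report genes with significantly altered expression. Leaving out arrays gave 0 to 1 members, with 0 without the IL-4 array of replicate 1, the control array of replicate 1, or both arrays of replicate 1 or of replicate 3. In each of these settings with 0 members, 0.00622% of all probes passed. Over all probes 365 passed with the replicate block and 18 without it. For the other receptors 0 passed without the block and 1 with it (*Ccrl2*), also without replicate 1 or replicate 2, but 0 without replicate 3. For the ligands 0 passed without the block and 3 with it, and with the block there were 3 without replicate 1 (*Ppbp*, *Ccl7*, *Ccl12*), 5 without replicate 2 (*Cxcl1*, *Cxcl2*, *Cxcl12*, *Ccl7*, *Ccl12*) and 2 without replicate 3 (*Ccl7*, *Ccl12*). For the signalling genes 1 passed with the block without replicate 2 (*Gng2*) and 0 otherwise. Over all tested probes, the blocked fit passed 2.17% without replicate 1, 5.24% without replicate 2 and 1.66% without replicate 3. Such fits leave fewer residual degrees of freedom than the 2 of the blocked fit on all arrays. Nothing is read from their calls. Leaving out arrays without the block gave 0 calls in these 3 lists, where 0.00622% to 0.417% of all probes passed. The cause of these changes was not tested. Leaving out both arrays of a number was chosen after seeing the data. Signals near background, as for *Cx3cr1* and the control arrays of *Cxcr2*, limit the size of a fold.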
